A study of Homo sapiens with 8 samples.

Results

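Ribosome footprints were examined here on the 10 genes whose products define the 3 mammalian SWI/SNF (mSWI/SNF) assemblies: ARID1A, ARID1B, DPF2 and SS18 for BAF, ARID2, PBRM1, BRD7 and PHF10 for PBAF, and BRD9 and BICRA for ncBAF. The genes were taken by name and not by their values, though earlier results of these data were known. All 10 were found among the 20719 gene IDs listed. All 10 were also among the 11097 genes that passed the expression filter. The libraries come from G401 cells, which derive from a rhabdoid kidney tumor and have no SMARCB1 of their own, carrying a Tet-On construct for SMARCB1 or, as the control line, for GFP. Each line received 0.1 μg/ml doxycycline (Dox) or the equivalent of DMSO for 12 h, which gives the groups SMARCB1 Dox, SMARCB1 DMSO, GFP Dox and GFP DMSO with 2 libraries each. Plates of a condition were pooled after harvest, and whether each line is a single clone is not given in the sources used here. Translating ribosomes were captured with RiboLace, and the deposited value is the number of protected fragments on the coding sequence of each gene. RNA-seq was not analysed here, so a footprint level reflects mRNA abundance and ribosome loading together.

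mSWI/SNF complexes use the ATPases SMARCA4 or SMARCA2 to move nucleosomes, and they share a core around SMARCC1 and SMARCC2. BAF is defined by an ARID1 subunit together with DPF2 and SS18, PBAF by ARID2 together with the bromodomain proteins PBRM1 and BRD7 and the PHD finger protein PHF10, and ncBAF by BRD9 and BICRA (also called GLTSCR1). SMARCB1 is a core subunit of BAF and PBAF and is absent from ncBAF, and its loss is the defining lesion of rhabdoid tumors. The question these libraries allow concerns the subunits that tell the 3 complexes apart. It is whether their footprints, relative to those of all genes, differed after SMARCB1 was restored.

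Retrocopies of BRD7 and PHF10 bear on what their counts mean, because HTSeq leaves out by default a fragment that aligns to more than 1 place. Of the 28-base windows along the coding sequence, about the length of a footprint, 76.4% in BRD7 (1471 of 1926) and 38.2% in PHF10 (560 of 1467) had an exact copy elsewhere in GRCh38. The share was 8.55% in DPF2, 6.97% in BRD9, 1.47% in SS18, 1.27% in ARID1B, 0.402% in ARID2, 0.322% in BICRA, 0.0586% in ARID1A and 0% in PBRM1. The processed pseudogene BRD7P2 on chromosome 3 (160100851 to 160102788) was 98.5% identical to BRD7 over 99.2% of its coding sequence, and PHF10P1 on chromosome X (155291950 to 155293432) was 96.3% identical to PHF10 over 80.5%. A stretch of 120 bases from each gene is shown with its copy to make this visible, with the mismatched bases in capitals and all others identical. In BRD7 (chr16:50333577-50333696, minus strand, coding bases 889 to 1008) the copy lies at chr3:160101723-160101842 on the plus strand, with 5 mismatches and an identical run of 48 bases.
BRD7: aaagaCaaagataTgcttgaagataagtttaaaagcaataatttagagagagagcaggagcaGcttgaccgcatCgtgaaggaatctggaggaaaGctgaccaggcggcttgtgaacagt
BRD7P2: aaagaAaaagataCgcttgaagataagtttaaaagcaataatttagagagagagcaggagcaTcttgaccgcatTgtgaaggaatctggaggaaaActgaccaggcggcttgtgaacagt
In PHF10 (chr6:169712530-169714842, minus strand, exons joined, coding bases 694 to 813) the copy lies at chr X, 155292882 to 155293001, on the plus strand, with 4 mismatches and an identical run of 76 bases.
PHF10: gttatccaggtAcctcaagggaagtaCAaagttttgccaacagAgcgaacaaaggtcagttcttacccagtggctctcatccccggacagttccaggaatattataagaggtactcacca
PHF10P1: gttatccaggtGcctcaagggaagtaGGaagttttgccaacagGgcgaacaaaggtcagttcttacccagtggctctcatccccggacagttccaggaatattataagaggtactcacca

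A 28-base fragment inside such a run fits gene and copy equally well, so counts of BRD7, and less so of PHF10, stand for part of their coding sequence. The paralogous members shared less with each other. The longest identical run between BRD7 and BRD9 was 27 bases at the start of both coding sequences, atgggcaagaagcacaagaagcacaag, and that between ARID1A and ARID1B was 25 bases. No coding base of the 10 genes was shared with the coding exons of another gene.

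The libraries held between 5924443 and 14000039 counts on genes, and the 10 genes together held 6269 to 15723 of them, or 0.104% to 0.136%. As a check of the labels, SMARCB1 counts were 2553 and 1750 under induction of SMARCB1, and 0 in all 6 remaining libraries. VIM, a mesenchymal marker, lay between 1212 and 3384 CPM (counts relative to library totals scaled with TMM). CDH2, listed with VIM as a marker of G401 cells, was nevertheless at 0 in 7 libraries. The leukocyte marker PTPRC and hepatocyte marker ALB were at 0 in all. The epithelial and endothelial markers EPCAM, CDH1, KRT20, PECAM1 and CDH5 did not exceed 1.92 CPM. CD68, listed with PTPRC as a leukocyte marker, was present at 11.9 to 37.9 CPM. GFP Dox replicate 1 stood apart: the median gene there lay 0.421 (log2) from the median of the other 7 libraries, against 0.212 to 0.313 for the other libraries. Of the alignments tallied by HTSeq, 56.4% were marked not unique in that library, against 25.6% to 39.7% in the others. Values of the comparisons that use GFP Dox replicate 1 are given with and without it. Where GFP Dox replicate 2 is left out instead, GFP Dox is that library alone, which is then assumed to vary like the other groups. Nothing in the labels says that replicates were separate cultures on separate days, so p-values measure the spread between these libraries, which may be technical. In these pooled lysates, fewer cells with a transcript and less of it per cell cannot be told apart.

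Among the BAF subunits, ARID1A, the ARID-domain protein that holds the BAF-specific module together, had the most footprints of the 10 genes in CPM. ARID1A (ENSG00000117713, GRCh38 chromosome 1, 26693236 to 26782104) was at 328 and 322.5 CPM in SMARCB1 Dox, 489 and 429 in SMARCB1 DMSO, 557 and 316 in GFP Dox, and 359 and 353 in GFP DMSO. Both SMARCB1 DMSO libraries lay above both SMARCB1 Dox libraries, and the GFP Dox replicates held the highest and the lowest value of all. ARID1B (ENSG00000049618, chromosome 6, 156776020 to 157210779), the paralog that takes the place of ARID1A in other BAF complexes, was at 127 and 133 CPM in SMARCB1 Dox, 171 and 169.5 in SMARCB1 DMSO, 140.5 and 140.2 in GFP Dox, and 131 and 141 in GFP DMSO. For ARID1B, both SMARCB1 DMSO libraries lay above all 6 others.

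DPF2 (ENSG00000133884, chromosome 11, 65333843 to 65354262), which reads acylated histone H3 through its PHD fingers, was at 30.6 and 31.9 CPM in SMARCB1 Dox, 35.4 and 37.7 in SMARCB1 DMSO, 17.4 and 35.8 in GFP Dox, and 25.8 and 34.9 in GFP DMSO. Apart from the 17.4 CPM of GFP Dox replicate 1 and the 25.8 CPM of GFP DMSO replicate 1, the libraries kept between 30.6 and 37.7. SS18 (ENSG00000141380, chromosome 18, 26016253 to 26091217), the subunit fused to SSX proteins in synovial sarcoma, was at 14.9 and 26.2 CPM in SMARCB1 Dox, 19.5 and 22.8 in SMARCB1 DMSO, 13.2 and 21.6 in GFP Dox, and 14.97 and 21.3 in GFP DMSO. Replicate 1 was below replicate 2 in each of the 4 groups for SS18, and the groups overlapped throughout.

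Among the PBAF subunits, ARID2 (ENSG00000189079, chromosome 12, 45729706 to 45908040), the ARID protein particular to PBAF, varied least: 90.0 and 80.7 CPM in SMARCB1 Dox, 103 and 87.9 in SMARCB1 DMSO, 88.2 and 93.0 in GFP Dox, and 101.5 and 105 in GFP DMSO. Its highest library was 1.3 times its lowest. PBRM1 (ENSG00000163939, chromosome 3, 52545352 to 52685917), which carries a row of bromodomains, was at 178 and 152 CPM in SMARCB1 Dox, 186 and 136 in SMARCB1 DMSO, 221 and 178 in GFP Dox, and 183 and 177 in GFP DMSO. Replicate 1 of PBRM1 was above replicate 2 in all 4 groups. Such an equal order in all groups was seen for 5 of the 10 genes and for 27.5% of all genes tested.

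BRD7 (ENSG00000166164, chromosome 16, 50313487 to 50368988) was at 25.2 and 30.0 CPM in SMARCB1 Dox, 26.5 and 21.2 in SMARCB1 DMSO, 21.2 and 19.7 in GFP Dox, and 20.4 and 22.6 in GFP DMSO. SMARCB1 Dox replicate 2 was its highest library, and the SMARCB1 Dox and SMARCB1 DMSO libraries overlapped. PHF10 (ENSG00000130024, chromosome 6, 169703902 to 169725566), the PHD finger subunit of PBAF, was at 163 and 145 CPM in SMARCB1 Dox, 249 and 208 in SMARCB1 DMSO, 423 and 195 in GFP Dox, and 224 and 183 in GFP DMSO. The 2 SMARCB1 Dox libraries were the lowest of the 8, and the 423 CPM of GFP Dox replicate 1 stood far above its replicate. PHF10 had the widest range of the 10 genes, 2.92 times from lowest to highest library.

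Of the ncBAF subunits, BRD9 (ENSG00000028310, chromosome 5, 850291 to 892801), a bromodomain protein that rhabdoid cells are known to depend on, was at 74.4 and 66.6 CPM in SMARCB1 Dox, 58.9 and 79.5 in SMARCB1 DMSO, 67.5 and 52.4 in GFP Dox, and 45.0 and 51.3 in GFP DMSO. Every library of the SMARCB1 line was above both GFP DMSO libraries, whereas GFP Dox replicate 1 lay among them. BICRA (ENSG00000063169, chromosome 19, 47608196 to 47703277), the scaffold that binds BRD9 in ncBAF, had 31 to 135 counts per library and was at 7.87 and 6.18 CPM in SMARCB1 Dox, 6.17 and 10.5 in SMARCB1 DMSO, 5.79 and 4.58 in GFP Dox, and 6.58 and 4.24 in GFP DMSO. It was the lowest of the 10 genes in every library.

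**Figure D1:**
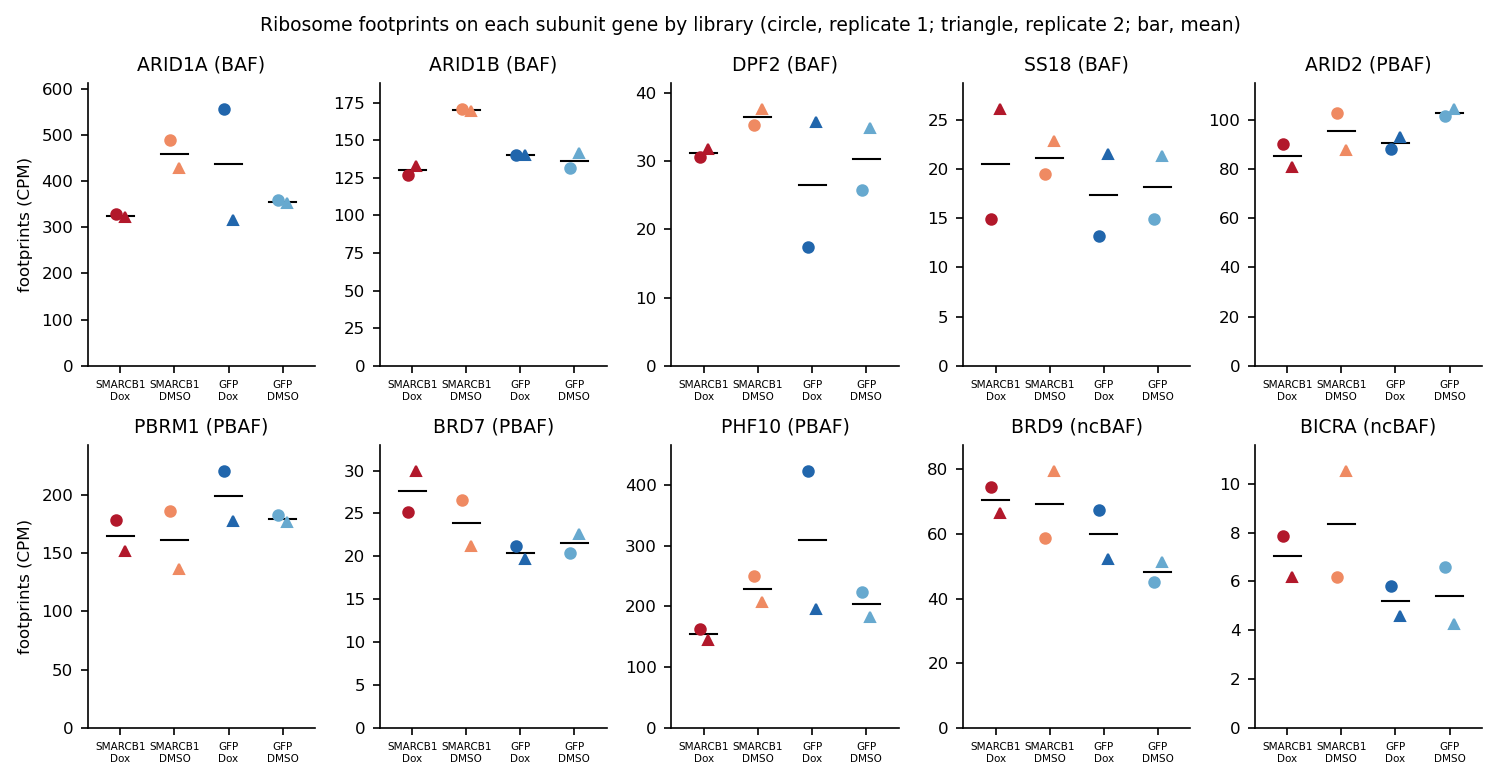
Footprints (CPM, vertical axis from 0) of the 10 subunit genes in each library, with 1 panel per gene, the 4 groups along the horizontal axis, circles for replicate 1, triangles for replicate 2 and bars for the mean of 2. In CPM, the gap between replicates is widest for ARID1A (557 and 316) and PHF10 (423 and 195), both in GFP Dox.

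Per kilobase of coding exons, which allows levels to be compared between genes, the defining subunits spread widely. PHF10 was the densest at a mean of 148 CPM per kilobase (96 to 280 across the 8 libraries), at the 90.8th percentile of the genes tested. ARID1A followed at 56.8 (45.6 to 80.3), then PBRM1 at 34.5 (26.6 to 43.2) and BRD9 at 30.1 (21.8 to 38.6). ARID1B at 18.1, ARID2 at 16.8 and DPF2 at 15.4 lay near the median of all genes tested, 17.2, and SS18 at 11.9 and BRD7 at 11.0 below it. BICRA was at 1.39 (0.906 to 2.25), at the 8.43rd percentile. The GC content of its coding sequence was 70.8%, against a median of 52% for the genes tested. Whether GC content bears on its density was not tested. PHF10 was above ARID1A, ARID1A above PBRM1, BRD9 above ARID1B and BRD7 above BICRA in 8 of 8 libraries. PBRM1 exceeded BRD9, ARID1B exceeded ARID2 and ARID2 exceeded DPF2 in 5 of 8 libraries each, and SS18 exceeded BRD7 in 4 of 8. The order of these neighbours thus varied between libraries. Every library where BRD9 exceeded PBRM1 was of the SMARCB1 line. DPF2 exceeded SS18 in 7 of 8.

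The place of BRD7 in this order turned on the length used. When the counts were divided by kilobases of 28-base windows of the canonical coding sequence without a copy elsewhere, BRD7 went from 11.0 to 51.3 CPM per kilobase (43.2 to 65.8), behind PHF10 at 247 and ARID1A at 57.8 only. DPF2 was then at 29.8, mainly through the shorter length of the canonical coding sequence, 1173 bases against 2027 for all coding exons. BRD9, at 37.7, was above PBRM1, at 34.7, in 3 of 8 libraries, all of the SMARCB1 line, and BICRA stayed last at 1.40. This scale assumes fragments of 28 bases and the loss of every fragment with a copy, neither of which could be read from the counts.

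**Figure D2:**
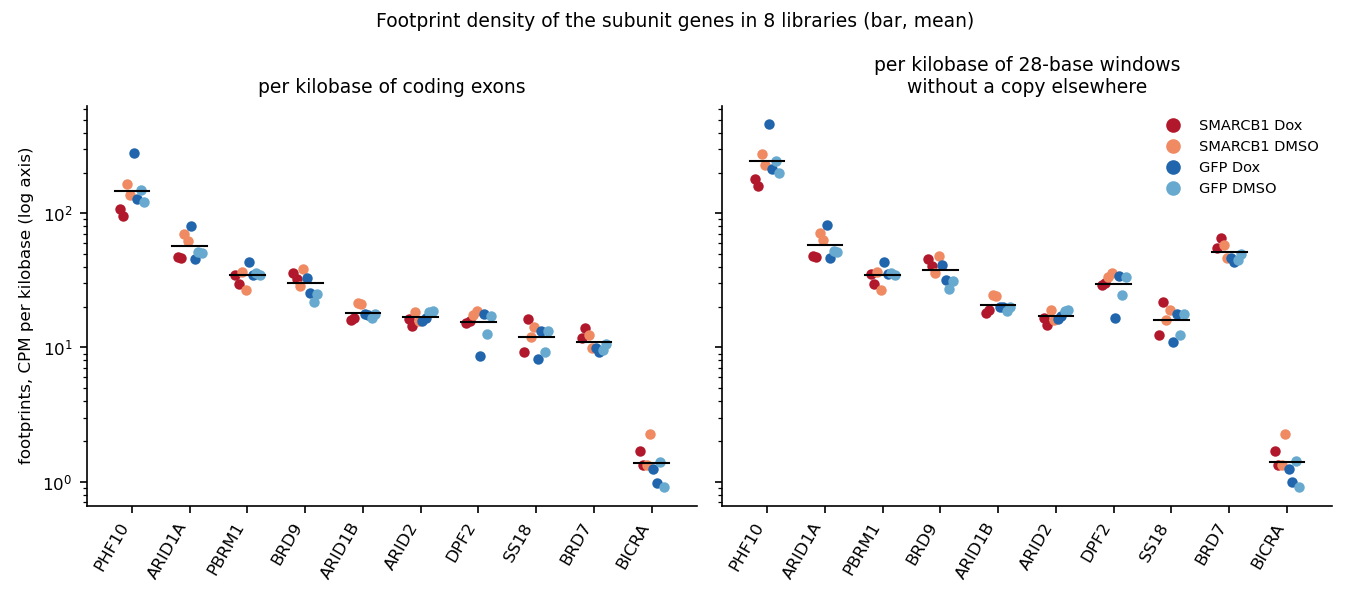
Footprint density (CPM per kilobase, log axis) of the 10 genes in 8 libraries coloured by group, with bars for the mean, per kilobase of coding exons on the left and per kilobase of 28-base windows without a copy elsewhere on the right. PHF10 is the highest and BICRA the lowest in both panels, and BRD7 moves from a mean of 11.0 to 51.3.

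Ratios within a library need no scaling between libraries. ARID1A exceeded ARID1B per kilobase in all 8 libraries, by 2.59 to 4.56 times with a median of 2.94, and the highest ratio was that of GFP Dox replicate 1. The ncBAF bromodomain subunit BRD9 exceeded its PBAF counterpart BRD7 by 2.28 to 3.88 times per kilobase of coding exons. Per kilobase of windows without a copy the same ratio was 0.612 to 1.04, so which of the pair was denser depended on how the retrocopies of BRD7 were treated. The ratio of the PHD finger subunits DPF2 and PHF10 was 0.0856 to 0.164 in 7 libraries and 0.0306 in GFP Dox replicate 1. BICRA stood at 0.0364 to 0.0644 of BRD9. Averaged over its members per kilobase of coding exons, PBAF was at 38.5 to 87.2 CPM, BAF at 21.9 to 30.4 and ncBAF at 11.6 to 20.4. Without PHF10 the PBAF mean was 17.5 to 23 and lay below the BAF mean in 8 of 8 libraries. On this scale the place of PBAF above BAF thus rested on PHF10, and the BAF mean rested most on ARID1A. ARID1A was at 56.8, and the other BAF members were at 18.1 or less. These means were not taken per kilobase of windows without a copy, where BRD7 was at 51.3 instead of 11.0. These levels describe footprints on the subunit genes, and neither a measured rate of synthesis nor the amount of assembled complex.

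After SMARCB1 was induced, no defining subunit passed the test. In SMARCB1 Dox against SMARCB1 DMSO, 0 of the 10 genes reached a call, that is an adjusted p-value below 0.05 with a fold change above 2 (edgeR's quasi-likelihood test, Benjamini-Hochberg over all 11097 genes), where 0.018% of all genes were called, namely 2 genes. At an unadjusted p-value below 0.05 the 10 genes again gave 0, against 4.97% of all genes. The lowest values were those of PHF10, with a log2 difference of -0.57 (SE 0.31, 95% interval -1.24 to 0.10), ARID1A, with -0.50 (SE 0.27, -1.08 to 0.08), and ARID1B, with -0.39 (SE 0.22, -0.85 to 0.07). The adjusted p-value from edgeR was 1 for each of them, and DESeq2 called 0 of the 10 as well.

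Of the other BAF members, DPF2 gave a log2 difference of -0.23 (SE 0.32) and SS18 -0.06 (SE 0.35). Among the PBAF members, ARID2 gave -0.16 (SE 0.22), PBRM1 0.04 (SE 0.24) and BRD7 0.21 (SE 0.27). The ncBAF members gave 0.02 (SE 0.25) for BRD9 and -0.26 (SE 0.44) for BICRA. Both SMARCB1 Dox libraries lay below both SMARCB1 DMSO libraries for 4 of the 10 genes, ARID1A, ARID1B, DPF2 and PHF10, where 18.3% of all genes did so, and for 0 of the 10 they lay above, where 17.3% did. The median log2 difference was -0.193 over the 10 genes and -0.02 over all genes tested. The intervals of 7 genes lay within a 2-fold change either way. For these genes a larger change relative to all genes is outside the interval. For PHF10, ARID1A and BICRA a 2-fold lower level is within it. Counts were scaled to the library totals, so a change in translation common to all genes would not appear in these values. The paper reports higher global translation after SMARCB1 re-expression, which the scaled counts cannot show.

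In the control line, Dox gave no call either. In GFP Dox against GFP DMSO, 0 of the 10 genes were called where 0% of all genes were, and 0 had an unadjusted p-value below 0.05, against 2.16% of all genes. PHF10 had the largest value, 0.60 (SE 0.31, interval -0.06 to 1.27), followed by BRD9 at 0.32 (SE 0.25) and ARID1A at 0.30 (SE 0.27). The PHF10 value came from GFP Dox replicate 1: without that library it was -0.06, and without GFP Dox replicate 2 it was 1.05, with an adjusted p-value of 0.0483 from edgeR that rests on 1 GFP Dox library. Without GFP Dox replicate 1, ARID1A gave -0.17, BRD9 0.12, DPF2 0.24, SS18 0.25, PBRM1 -0.02 and BICRA -0.23, and the other 3 genes moved by less than 0.1. PBRM1 was at 0.15, ARID1B at 0.04, SS18 and BICRA at -0.06, BRD7 at -0.08, and ARID2 and DPF2 at -0.19. BRD9 was higher in both GFP Dox libraries than in both GFP DMSO libraries, as 13.1% of all genes were, and ARID2 was lower in both, as 13.2% were. DESeq2 called 0 of the 10 genes in this comparison, in the difference between the Dox effects and between the lines under DMSO.

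The difference between the Dox effects of the lines asks whether SMARCB1 induction and GFP induction moved a subunit unequally. Of the 10 genes, 0 were called, as were 0% of all genes, SMARCB1 included (its 0 counts in 3 groups leave the effect of Dox in the GFP line undefined), and 1 had an unadjusted p-value below 0.05, against 3.99% of all genes. That gene was PHF10, with a difference of -1.17 (SE 0.44, interval -2.11 to -0.23, adjusted p = 0.981 from edgeR). It was -0.50 without GFP Dox replicate 1, and -1.62 without GFP Dox replicate 2, where the adjusted p-value, from 1 GFP Dox library, was 0.0359. ARID1A had -0.79 (SE 0.38) and ARID1B -0.43 (SE 0.31), and the other 7 genes lay between -0.29 (BRD9) and 0.29 (BRD7). ARID1A was at -0.32 without GFP Dox replicate 1 and at -1.14 (adjusted p = 0.0844) without GFP Dox replicate 2. Without replicate 1, DPF2 was at -0.46, SS18 at -0.31, BRD9 at -0.096, PBRM1 at 0.054, BICRA at -0.029, ARID2 at -0.0086, BRD7 at 0.34 and ARID1B at -0.43. Only the intervals of ARID2 and PBRM1 lay within a 2-fold difference, so a differing response of the other genes could not be bounded that closely with these libraries.

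**Figure D3:**
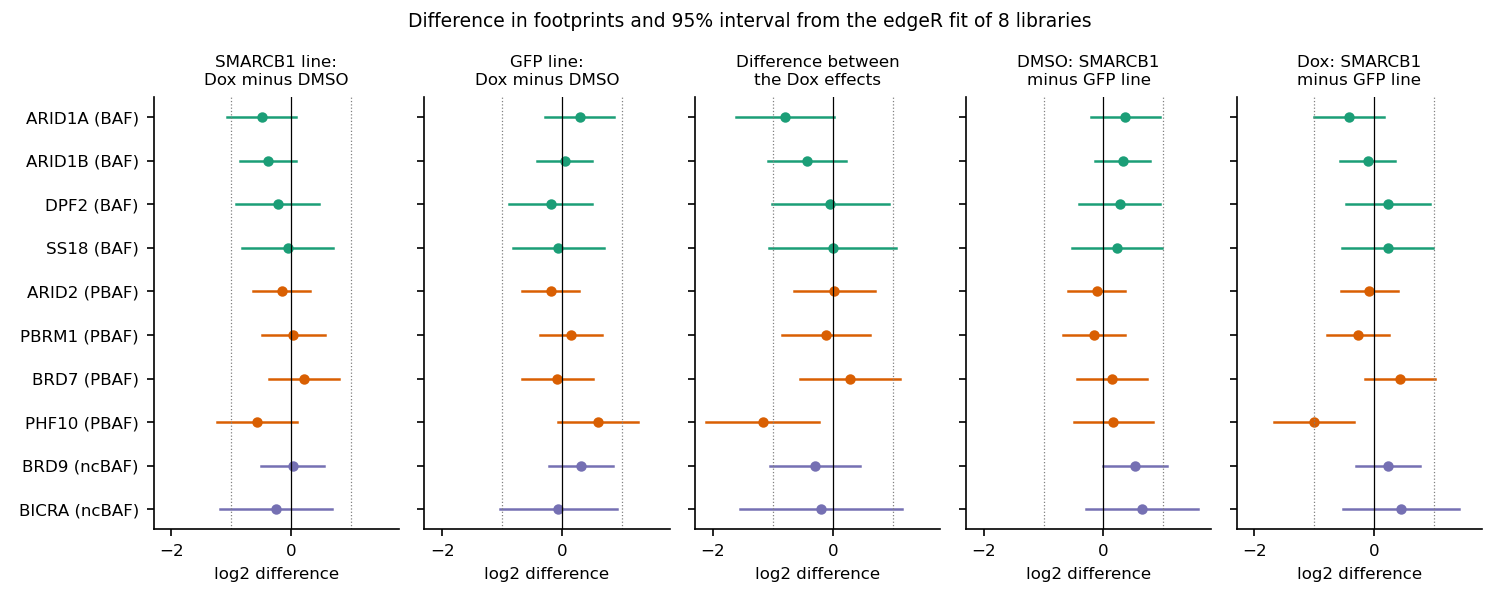
Log2 difference in footprints (points) with the 95% interval of the edgeR fit (lines) for the 10 genes in 5 comparisons, coloured by complex, with dotted lines at a 2-fold change. The interval leaves out 0 for PHF10 alone, in the difference between the Dox effects (-1.17) and in the SMARCB1 line against the GFP line with Dox (-1.003).

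The lines themselves, compared under DMSO, differed at 4.97% of all genes and at 0 of the 10 subunit genes. BRD9 came closest, at 58.9 and 79.5 CPM in SMARCB1 DMSO against 45.0 and 51.3 in GFP DMSO, a log2 difference of 0.53 (SE 0.25, adjusted p = 0.367 from edgeR). BICRA, its ncBAF partner, gave 0.65 (SE 0.44), and the BAF members ARID1A, ARID1B, DPF2 and SS18 gave 0.37, 0.32, 0.27 and 0.22. PHF10 and BRD7 were at 0.17 and 0.14, and ARID2 and PBRM1, both of PBAF, were the 2 members below 0, at -0.11 and -0.16. Thus 8 of the 10 genes had a value above 0, against 51.5% of all genes, and none of them had an unadjusted p-value below 0.05, which 13.9% of all genes had. ARID1A, ARID1B, DPF2 and BRD9 were higher in both libraries of the SMARCB1 line, as 22% of all genes were.

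With Dox, PHF10 was the subunit that set the lines apart most, on the strength of GFP Dox replicate 1. PHF10 stood at 163 and 145 CPM in SMARCB1 Dox and at 423 and 195 in GFP Dox, a log2 difference of -1.003 (SE 0.31, interval -1.67 to -0.33), with an unadjusted p-value of 0.00634 and an adjusted p-value of 0.0783 in edgeR's test across all genes. Across the 10 genes 0 were called, where 6.08% of all genes were, and PHF10 was the 1 gene with an unadjusted p-value below 0.05, which 18.7% of all genes had. Without GFP Dox replicate 1 the PHF10 value was -0.34 (adjusted p = 0.59), and without GFP Dox replicate 2, with 1 library left in that group, it was -1.45 (adjusted p = 0.00104). DESeq2 called it, at -1.01 with an adjusted p-value of 0.03.

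BRD7 gave 0.43 (SE 0.28) and BICRA 0.45 (SE 0.46) in the same comparison, both higher in each SMARCB1 Dox library than in each GFP Dox library, as 23.2% of all genes were. PHF10 and ARID1B were lower in each, as 22.9% were. ARID1A was at -0.42 (SE 0.27), and at 0.04 without GFP Dox replicate 1 or -0.77 (adjusted p = 0.0372) without GFP Dox replicate 2. PBRM1 was at -0.27, ARID1B at -0.11, ARID2 at -0.09, SS18 at 0.22, DPF2 at 0.23 and BRD9 at 0.24. Without GFP Dox replicate 1, DPF2 was at -0.20, SS18 at -0.090, PBRM1 at -0.11, BRD7 at 0.48, BRD9 at 0.43 and BICRA at 0.63. When the 4 libraries of each line were set against each other regardless of Dox, 0 of the 10 genes had separate ranges, where 17.6% of all genes did. The comparisons within lines and between lines share libraries and are not independent of each other.

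**Figure D4:**
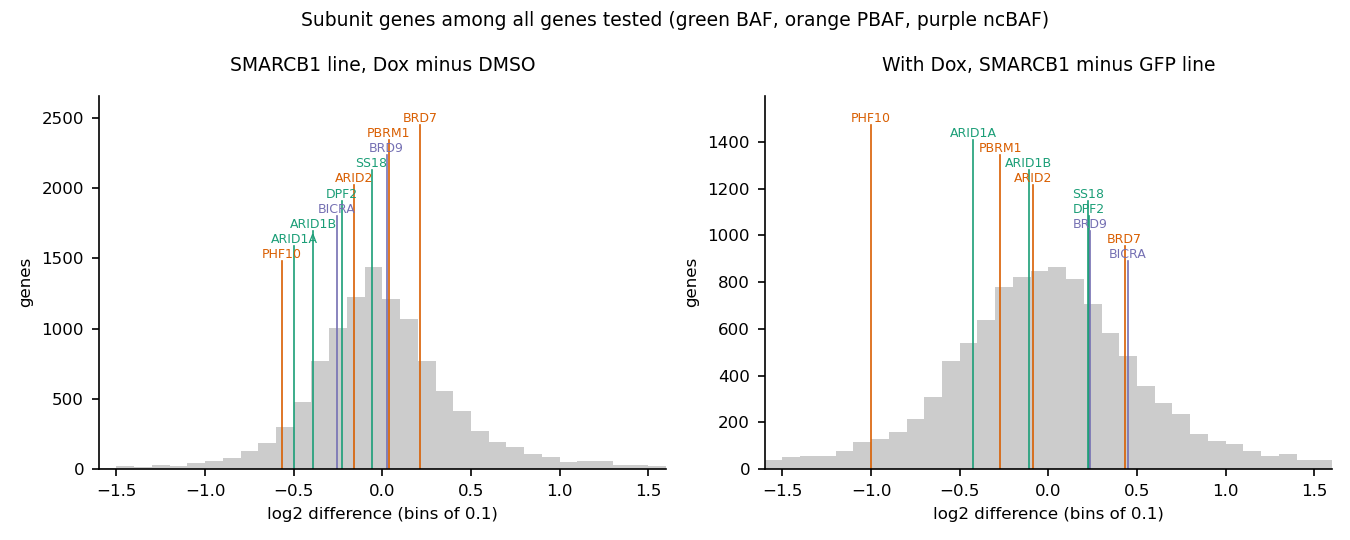
Number of genes (vertical axis) by log2 difference in bins of 0.1, with the 10 subunit genes marked by lines in the colour of their complex, for SMARCB1 Dox minus SMARCB1 DMSO on the left and SMARCB1 Dox minus GFP Dox on the right. PHF10 is the member farthest from 0 in both panels, at -0.57 and -1.003, where 15.9% and 14.4% of all genes lie farther out. Genes past 1.6 either way are not drawn.

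The library behind the PHF10 values also moved other members. In GFP Dox replicate 1, PHF10 lay 1.12 (log2) above the median of the other 7 libraries and ARID1A 0.66 above, whereas DPF2 lay 0.99 and SS18 0.67 below. A distance as large as that of PHF10 was exceeded by 12.7% of all genes in this library, and that of DPF2 by 16%. The remaining 6 members lay within 0.31 of that median. Some 15.6% of all genes lay more than 2-fold away there, against 6.01% to 9.17% in the other libraries, so PHF10 was not alone in it. The part of this library's many alignments marked not unique in its values was not tested.

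The genes whose levels ran most like those of PHF10, the member with the widest span of group means, were ESF1, IFT88 and TBC1D30, with Pearson correlations of log2 CPM of 0.976, 0.974 and 0.973 over the 8 libraries. ESF1, a nucleolar protein, was at 570 CPM in GFP Dox replicate 1 and between 146 and 271 in the other libraries. IFT88, an intraflagellar transport protein, was at 201 CPM there and between 51.8 and 103 elsewhere, and TBC1D30 at 6.12 and between 0.951 and 3.002. Without GFP Dox replicate 1 the correlations over 7 libraries were 0.911, 0.902 and 0.915. These 7 are among the 8 libraries by which the genes were picked, so high values there partly follow from the choice.

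The rest of the complex was examined with a list of 19 further subunits, of which 16 could be tested. SMARCB1 itself was the 1 subunit of these called in SMARCB1 Dox against SMARCB1 DMSO, and again between the lines with Dox, and 0 were called in GFP Dox against GFP DMSO or between the lines under DMSO. The median log2 difference of the 16 was -0.084 in SMARCB1 Dox against SMARCB1 DMSO, beside -0.193 for the defining subunits. The ATPase SMARCA4 had 1991 to 7971 counts per library, whereas its alternative SMARCA2 had 2 or fewer in each. The paralogs of the members were low: DPF1 had 6 to 47 counts per library, DPF3 0 to 6, SS18L1 1 to 27 and BICRAL 9 to 36, against 105 to 503 for DPF2, 80 to 307 for SS18 and 31 to 135 for BICRA. DPF2 and SS18 thus had more counts than the paralogs listed here for each. BICRA exceeded BICRAL per kilobase in 7 of 8 libraries, at means of 1.39 and 0.745. The order was turned in GFP Dox replicate 2 (0.98 and 1.65).

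A list of 24 other ATP-dependent remodelers gave the comparison outside the family. In SMARCB1 Dox against SMARCB1 DMSO, 0 of its 23 tested genes were called and 15 were lower in both SMARCB1 Dox libraries, against 4 of the 10 defining subunits and 18.3% of all genes. Their median log2 difference was -0.212, beside -0.193 for the defining subunits. CHD7, a remodeler of the chromodomain family, was the 1 gene of this list called between the lines under DMSO, at 49.5 CPM in SMARCB1 DMSO and 1.66 in GFP DMSO, a log2 difference of 4.89 (SE 0.44, adjusted p = 4.82e-06 from edgeR). With Dox it was 4.82 (SE 0.48, adjusted p = 1.28e-05).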

How the data were processed

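Ribosome profiling counts of 8 G401 libraries were analysed. The authors prepared fragments with RiboLace, aligned them to hg38 with STAR and counted them with HTSeq (mode intersection-strict, type CDS, GENCODE annotation 42), and they deposited raw counts per gene without normalization. Adapter and ribosomal RNA handling, the strand option and versions are not given in the sources used here. Groups came from the sample titles. The 5 HTSeq rows that name no gene were left out.

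Symbols, positions and coding lengths came from GENCODE 44 (GRCh38), which matched 20426 gene IDs and left 293 unmatched. Exact copies of 28-base windows were searched in the genome on both strands with Python 3.11.15. In R 4.3.3, edgeR 4.0.16 was used: filterByExpr by group, TMM scaling and glmQLFit on the 8 libraries together, each group a term, because 2 libraries a group give a poor estimate of the spread. Standard errors and 95% intervals came from the quasi-likelihood F statistic. A call required an adjusted p-value below 0.05 across the 11097 genes tested and a fold change above 2. The test was checked on simulated counts.

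The rule for named genes took all 10 members, SMARCB1, other subunits with an adjusted p-value below 0.05, the paralogs DPF1, DPF3, SS18L1 and BICRAL, the 3 genes most alike to the member with the widest span, and at most 4 remodelers. SMARCA4 and SMARCA2 were named after their values were seen. The members and lists were chosen with earlier results of these data known. Alternatives were other size factors, library size alone, DESeq2 1.42.0, other filters, only the groups compared, robust quasi-likelihood, a replicate block, leaving out each library, another coding length and, chosen after seeing the data, a correction for GC content and the windows without a copy. Intervals cover the spread between libraries, and depth limits BICRA most.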

Additional observations from a re-analysis of the deposited data

How the results depend on the processing

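In SMARCB1 Dox against SMARCB1 DMSO and between the lines under DMSO, 0 of the 10 genes were called under every alternative run, also without each library in turn. Between the lines with Dox the number of genes called was 1 (PHF10) with DESeq2 and 1 with the GC correction, and the number with an adjusted p-value below 0.05 was 1 with each of these, 1 without a filter on low counts and 1 with the replicate block. Leaving out each library in turn gave 0 to 1 genes called and 0 to 2 at an adjusted p-value below 0.05 in that comparison, and 0 to 1 by both measures in GFP Dox against GFP DMSO and in the difference between the Dox effects, with the highest number in each case without GFP Dox replicate 2. All genes called went from 2 to 46 without a filter, 34 with DESeq2 and 13 with the replicate block in SMARCB1 Dox against SMARCB1 DMSO, and without GFP Dox replicate 2 from 0 to 147 in GFP Dox against GFP DMSO, from 0 to 105 in the difference between the Dox effects and from 675 to 1372 between the lines with Dox. Requiring at least 10 counts in every library took the line comparisons from 552 to 288 under DMSO and from 675 to 377 with Dox. The deviations of same-numbered replicates from their group means correlated at 0.0461 to 0.322, with 1 of the 6 group pairs below 0.1. The difference of replicate 1 from replicate 2 fell with the GC content of the coding sequence in all 4 groups (Pearson r across 11096 genes, which are not independent, of -0.25 to -0.428), a shared order of the replicate numbers. The labels tie the numbers to no day or batch, and the libraries were not treated as paired.

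The log2 differences that changed sign did not pass the test under that alternative, and the cause was not tested. SS18 in the difference between the Dox effects went above 0 with DESeq2's size factors (0.0029), DESeq2's test (0.0059), at least 10 counts in every library (0.0099) and no filter (0.028). Scaling by library size alone put the median of all genes at 0.161 in the difference between the Dox effects and at 0.112 between the lines with Dox. The first then had DPF2 at 0.12, SS18 at 0.17, PBRM1 at 0.086 and BICRA at 0.0201, and the second ARID1B at 0.015 and ARID2 at 0.037. That scaling also gave SS18 at 0.054 in SMARCB1 Dox against SMARCB1 DMSO and ARID1B at -0.043 in GFP Dox against GFP DMSO. The replicate block gave DPF2 at 0.0082 and the GC correction ARID2 at -0.015 in the difference between the Dox effects, and the GC correction gave BRD9 at -0.0056 in SMARCB1 Dox against SMARCB1 DMSO. Without each library in turn, the values that crossed 0 ranged as follows. In SMARCB1 Dox against SMARCB1 DMSO the range was -0.51 to 0.30 for SS18, -0.17 to 0.28 for PBRM1, -0.17 to 0.26 for BRD9 and -0.58 to 0.20 for BICRA. In the difference between the Dox effects the range was -0.46 to 0.58 for DPF2, -0.45 to 0.39 for SS18, -0.081 to 0.14 for ARID2, -0.32 to 0.13 for PBRM1 and -0.54 to 0.26 for BICRA. Between the lines with Dox the range was -0.77 to 0.041 for ARID1A, -0.20 to 0.85 for DPF2 and -0.22 to 0.62 for SS18. Between the lines under DMSO the range was -0.0094 to 0.50 for SS18, -0.40 to 0.049 for PBRM1 and -0.021 to 0.30 for BRD7. In GFP Dox against GFP DMSO the range was -0.17 to 0.64 for ARID1A, -0.0103 to 0.094 for ARID1B, -0.81 to 0.24 for DPF2, -0.46 to 0.25 for SS18, -0.015 to 0.29 for PBRM1, -0.063 to 1.05 for PHF10 and -0.35 to 0.29 for BICRA. Mean densities moved by more than 1 SD over libraries for SS18 with the longest coding transcript (15.4 CPM per kilobase), and with windows without a copy for ARID1B (20.6), DPF2 (29.8), SS18 (15.98), BRD7 (51.3), PHF10 (247) and BRD9 (37.7).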
